A study of Mus musculus with 10 samples.

Results

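The genes of the mitochondrial respiratory chain and ATP synthase were followed in liver tumours and livers of mice with and without the kinase MLK3, as 97 protein-coding genes of the 39056 in the count table. Members were taken by symbol: Nduf genes of the A, B, C, S and V series (complex I), Sdha to Sdhd (complex II), Uqcr genes (complex III), Cox4 to Cox8 genes (complex IV), Atp5 genes (complex V) and the mRNAs of mitochondrial DNA (mtDNA). Of 107 matching symbols, 10 were processed pseudogenes and were left out. The nucleus encodes 84 members, 37 in complex I, 4 in complex II, 8 in complex III, 18 in complex IV and 17 in complex V. The mitochondrial genome encodes the other 13, of which 7 belong to complex I, 1 to complex III, 3 to complex IV and 2 to complex V. A rule by symbol misses Ndufab1, Cyc1 and the ATP synthase genes Atpif1 and Usmg5, and places Ndufa4 in complex I although its product is now regarded as a subunit of complex IV.

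The mice were C57BL/6 animals of matched sex studied at 11 months, and the groups were KO tumours (MLK3-KO, 3 libraries), WT tumours (wild type, 3), KO livers (2) and WT livers (2). Mice of both tumour groups were males that had received diethylnitrosamine (DEN, a DNA-alkylating liver carcinogen) once at 2 weeks of age, intraperitoneally at 5 µg per g, and from 1 week later phenobarbital (PB, a tumour promoter) at 0.05% of the drinking water up to the end. Mice of both liver groups drank water without these agents, so that tumour and treatment cannot be told apart in any tumour-to-liver comparison. The labels used here do not give the deleted part of the MLK3 gene (Map3k11) or the number of tumours behind a library, and the design text calls the replicates biological.

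The chain passes electrons from NADH (complex I) and succinate (complex II) through ubiquinone to complex III, and then through cytochrome c to complex IV, which reduces oxygen. Complexes I, III and IV pump protons, and complex V uses the gradient to make ATP. Subunits of complex II come from nuclear genes alone, while each other complex mixes subunits of both genomes, whose mRNAs are made by different polymerases in different compartments. Hepatocytes are rich in mitochondria, and liver tumours often rely more on glycolysis.

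Library totals ran from 12408749 to 18081487 counts. Reads are 3' tags, so that levels, given as CPM (counts scaled to library size, with TMM factors), are compared between samples and never between genes. One library stood apart within its group: KO tumour 2 had 3.84 CPM of Afp, an oncofetal marker of liver tumours, against 446 and 168 CPM in KO tumours 1 and 3, and 452, 146 and 534 CPM in WT tumours. It also had 0.488 CPM of Gpc3, another tumour marker, against 46.8 and 48.9 CPM in KO tumours 1 and 3. WT tumours had 441, 609 and 349 CPM of Gpc3, so that all KO tumours lay far below them. The livers had 0.283 to 6.35 CPM of Afp and 0 to 4.96 CPM of Gpc3. KO tumour 2 thus lay in the range of the livers for both markers. Counts of members called by edgeR in comparisons of KO tumours are given with and without it. Other counts and medians, such as those of DESeq2 and of members without overlap, include KO tumour 2 unless stated. The targeted gene Map3k11 had 10.0, 10.3 and 5.84 CPM in KO tumours, 12.2, 9.53 and 14.3 CPM in WT tumours, 5.38 and 5.81 CPM in KO livers and 7.91 and 14.9 CPM in WT livers. It passed the test in none of the 5 comparisons, and since the deleted part is not known, its 3' tags check neither the knockout nor the labels. In bulk tissue, fewer cells of a type and less RNA per cell cannot be told apart. The sum of 7 hepatocyte markers was 38400 to 44300 CPM in KO tumours, 74500 to 96000 in WT tumours, 46400 to 49400 in KO livers and 42600 to 46000 in WT livers, and no marker of the 7 was at 0. The sum is carried by Alb, at 21390 to 26400 CPM in KO tumours, 50470 to 62140 in WT tumours, 25320 to 28890 in KO livers and 22790 to 24450 in WT livers. The 7 markers did not move as 1 set: in WT tumours against WT livers Alb, Apoa1 and Serpina1a rose, and the other 4 did not pass the test, with a median log2 fold change of 0 over the 7. Hnf4a, a transcription factor that defines hepatocytes, was at -0.71 there (SE 0.22, adjusted p = 0.0582).

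WT tumours held less respiratory chain mRNA than the other groups did. The 13 mRNAs of mtDNA took 6.45%, 8.44% and 6.83% of all counts in KO tumours and 5.10%, 4.03% and 4.93% in WT tumours. They took 7.21% and 7.72% in KO livers and 7.27% and 7.57% in WT livers. All 3 WT tumours lay below every other library, and KO tumours overlapped the livers. Members encoded in the nucleus took 2.00%, 1.82% and 1.92% in KO tumours and 1.35%, 1.45% and 1.42% in WT tumours. They took 1.76% and 1.66% in KO livers and 1.60% and 1.74% in WT livers. Here too the 3 WT tumours were the lowest of the 10 libraries. The ratio of mitochondrial to nuclear reads was 3.22, 4.63 and 3.56 in KO tumours and 3.78, 2.77 and 3.48 in WT tumours, so that these groups overlapped, against 4.09 and 4.66 in KO livers and 4.54 and 4.34 in WT livers. The highest ratio among tumours was that of KO tumour 2.

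**Figure D1:**
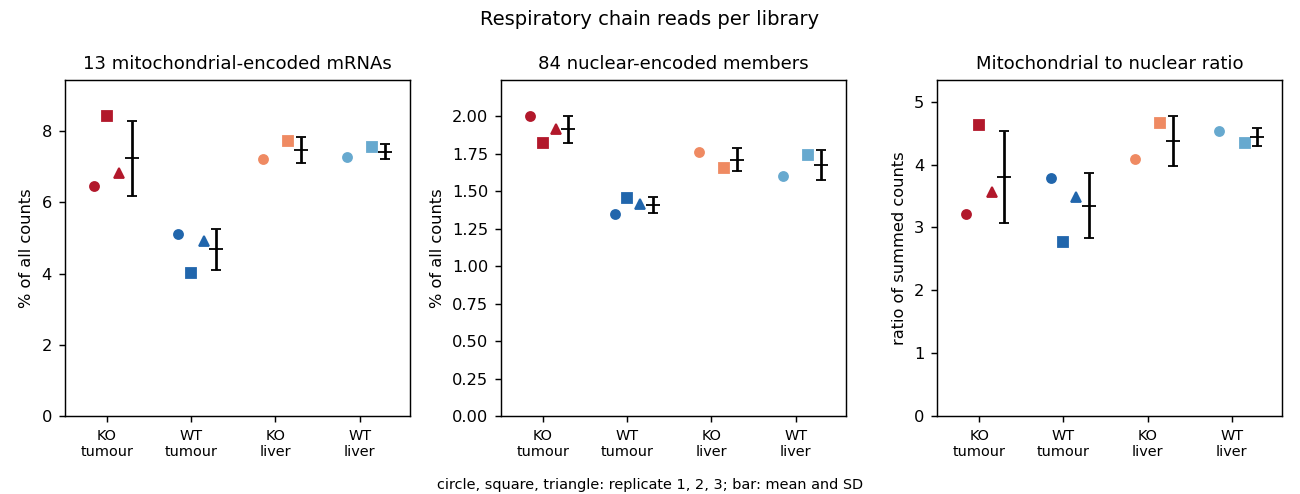
Share of all counts taken by the 13 mitochondrial-encoded mRNAs (left, %) and by the 84 nuclear-encoded members (middle, %), and the ratio of their summed counts (right), for each library; circles, squares and triangles are replicates 1, 2 and 3 and black bars the mean and SD. The 3 WT tumours, at 4.03% to 5.10% and at 1.35% to 1.45%, lie below all other libraries in the left and middle panels, while in the right panel KO and WT tumours overlap.

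These shares move with what else a library holds. The major urinary proteins (Mup genes), abundant secreted products of male liver, took 5.38% to 8.51% of counts in KO tumours, 0.137% to 0.613% in WT tumours, 8.46% to 10.9% in KO livers and 11.7% to 12.4% in WT livers. With Mup reads taken out of the totals, the mitochondrial share was 7.80 ± 1.23% in KO tumours (SD, n = 3), 4.70 ± 0.588% in WT tumours (n = 3), 8.27 ± 0.554% in KO livers (n = 2) and 8.44 ± 0.281% in WT livers (n = 2). Since WT tumours held the fewest Mup reads, this step raised the shares of the other groups more. It could therefore not narrow the gap and is no check on the low values of the WT tumours. Alb took 5.6% to 6.3% of counts in WT tumours and 2.05% to 2.79% in the other libraries, and was not taken out.

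By complex, the nuclear-encoded members of complex I took 0.586%, 0.552% and 0.558% of counts in KO tumours and 0.391%, 0.429% and 0.412% in WT tumours. Those of complex IV took 0.359%, 0.368% and 0.339% in KO tumours and 0.243%, 0.258% and 0.254% in WT tumours. Those of complex V took 0.629%, 0.578% and 0.609% in KO tumours and 0.445%, 0.411% and 0.430% in WT tumours. Each of these sums, and that of complex II, was lower in all WT tumours than in any other library. Complex III was the exception, with 0.354%, 0.235% and 0.343% in KO tumours and 0.216%, 0.303% and 0.260% in WT tumours, which overlapped each other and the livers. Its sum is carried by Uqcrh, the hinge protein, at 1707, 776 and 1670 CPM in KO tumours and 792, 1684 and 1244 CPM in WT tumours, a member described below among those that did not move with the rest.

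WT tumours were compared with WT livers to describe the tumours that form with MLK3 present. Of 92 members with enough reads to be tested, 26 fell and 1 rose (Benjamini-Hochberg adjusted p under 0.05 over 15811 genes), while 8.34% of all genes were called, 4.7% lower and 3.64% higher. An unadjusted p under 0.05 was reached by 59 members, while 21.4% of all genes reached it. The members that fell comprised 20 of 79 nuclear-encoded and 6 of 13 mitochondrial-encoded ones, with 6 in nuclear complex I, 1 in complex II, 1 in complex III, 5 in complex IV and 7 in complex V. The median log2 fold change was -0.61 over nuclear-encoded and -0.78 over mitochondrial-encoded members, beside 0.09 over all genes tested. The libraries of WT tumours lay wholly below those of WT livers for 64 of the 92 members and wholly above for 5, while 17.6% of all genes lay wholly below and 19.6% wholly above. The count of 26 fell to 10 without WT liver 1 and likewise to 10 without WT liver 2, and was 35 without KO tumour 2, a library of neither group compared.

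**Figure D2:**
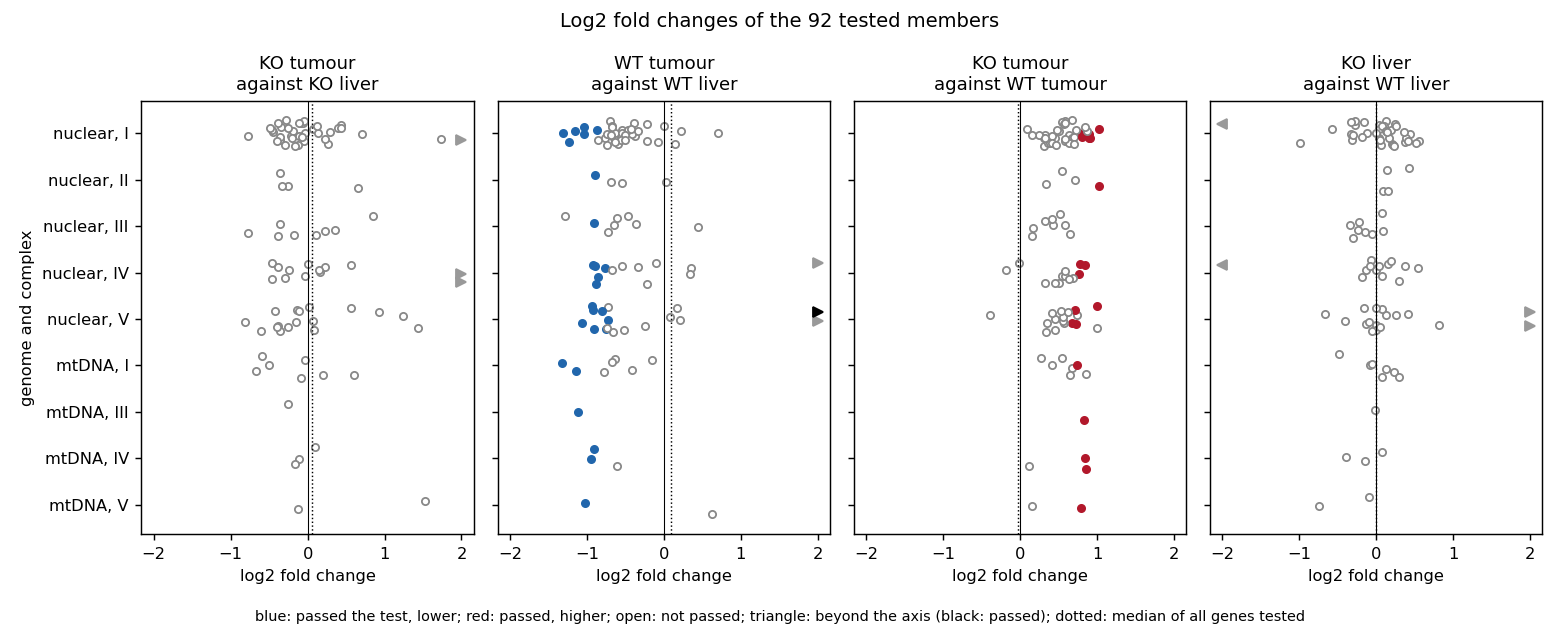
Log2 fold change (horizontal axis) of each of the 92 tested members in 4 comparisons, by genome and complex (vertical axis); filled blue and red points passed the test as lower and higher, open points did not, triangles lie beyond the axis limit of 2 and the dotted line is the median of all genes tested. In WT tumours against WT livers 26 members are filled blue, with Atp5s as the black triangle, in KO against WT tumours 19 are filled red, and in the other panels no member passed.

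Among the nuclear-encoded members of complex I, Ndufb5, Ndufs7 and Ndufv1 had the smallest p. Ndufb5, an accessory subunit of the membrane arm (chromosome 3, 32736990 to 32751566, plus strand, GRCm38), had 145, 164 and 148 CPM in KO tumours, 90.2, 86.1 and 67.8 CPM in WT tumours, 187 and 176 CPM in KO livers and 203 and 160 CPM in WT livers. WT tumours were below every other library, and the fall against WT livers was -1.16 (log2, SE 0.21, adjusted p = 0.00286). Ndufs7, which holds an iron-sulphur cluster near the ubiquinone site (chromosome 10, 80249121 to 80256794), had 88.4, 105 and 77.0 CPM in KO tumours, 61.8, 61.4 and 43.2 CPM in WT tumours, 80.0 and 127 CPM in KO livers and 142 and 119 CPM in WT livers. Again the WT tumours were lowest (-1.23, SE 0.26, adjusted p = 0.00681). Ndufv1, the flavin-bearing subunit that takes electrons from NADH (chromosome 19, 4007384 to 4012806), had 91.8, 130 and 84.8 CPM in KO tumours, 45.04, 55.0 and 70.1 CPM in WT tumours, 70.1 and 119 CPM in KO livers and 150 and 132 CPM in WT livers. WT tumour 3 and KO livers met at 70.1 CPM, while the fall against WT livers was -1.31 (SE 0.28, adjusted p = 0.00763). Ndufa12, Ndufb3 and Ndufs8 also fell, by 0.87 to 1.04 on the log2 scale.

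Of all 37 nuclear-encoded members of complex I, 22 had an unadjusted p under 0.05. Ndufs1, the largest subunit of the peripheral arm, had 74.8, 102 and 77.0 CPM in KO tumours, 43.2, 62.5 and 68.9 CPM in WT tumours, 62.7 and 91.3 CPM in KO livers and 90.2 and 97.1 CPM in WT livers. WT tumours lay below WT livers and overlapped KO livers, and the difference from WT livers (-0.69, SE 0.26) did not pass the test (adjusted p = 0.135). Ndufa5 missed it narrowly (-0.74, SE 0.22, adjusted p = 0.0508).

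Complex II oxidises succinate and links the chain to the citric acid cycle. Its iron-sulphur subunit Sdhb (chromosome 4, 140961203 to 140979193) had 210, 280 and 195 CPM in KO tumours, 117, 146 and 156 CPM in WT tumours, 255 and 321 CPM in KO livers and 241 and 280 CPM in WT livers. WT tumours were the lowest, with a fall of -0.90 (log2, SE 0.23, adjusted p = 0.024) against WT livers. The flavoprotein Sdha had 222, 338 and 203 CPM in KO tumours, 178, 188 and 160 CPM in WT tumours, 299 and 305 CPM in KO livers and 266 and 301 CPM in WT livers. It too was lowest in WT tumours without passing the test (-0.69, SE 0.24, adjusted p = 0.0881). The membrane anchor Sdhd differed by 0.03 (SE 0.27) and overlapped between WT tumours and WT livers.

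In complex III, which passes electrons to cytochrome c, 1 of 8 nuclear-encoded members fell. Uqcrb, a ubiquinone-binding subunit, had 188, 235 and 197 CPM in KO tumours, 126, 130 and 159 CPM in WT tumours, 197 and 274 CPM in KO livers and 270 and 251 CPM in WT livers. WT tumours were below all other libraries (-0.91 against WT livers, SE 0.22, adjusted p = 0.0169). The core subunit Uqcrc1 had 80.7, 116 and 96.3 CPM in KO tumours, 80.3, 65.5 and 70.9 CPM in WT tumours, 112 and 139 CPM in KO livers and 116 and 124 CPM in WT livers. All WT tumours lay below both WT livers (-0.73 in WT tumours against WT livers, SE 0.22, adjusted p = 0.0593). The Rieske iron-sulphur protein Uqcrfs1 had 142, 195 and 173 CPM in KO tumours, 132, 153 and 124 CPM in WT tumours, 248 and 196 CPM in KO livers and 201 and 215 CPM in WT livers (-0.61, SE 0.22, adjusted p = 0.109). Both were lower in all WT tumours than in either WT liver, without passing the test. The other core subunit, Uqcrc2, was low in both tumour groups, at 7.70, 8.37 and 10.6 CPM in KO tumours, 9.37, 5.82 and 8.47 CPM in WT tumours, 13.7 and 16.6 CPM in KO livers and 17.8 and 20.6 CPM in WT livers. All 6 tumours lay below all 4 livers, but neither tumour-to-liver difference passed the test (-0.77 in KO, SE 0.43, adjusted p = 0.581, and -1.28 in WT, SE 0.43, adjusted p = 0.0851).

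Complex IV, cytochrome c oxidase, had 5 of 13 tested nuclear-encoded members lower in WT tumours. Cox5b had 241, 270 and 221 CPM in KO tumours, 163, 157 and 182 CPM in WT tumours, 349 and 320 CPM in KO livers and 326 and 305 CPM in WT livers. WT tumours were the lowest and KO tumours lay between them and the livers (-0.92 in WT tumours against WT livers, SE 0.20, adjusted p = 0.00872). Cox7a2, the liver isoform of subunit VIIa (chromosome 9, 79755361 to 79759878, minus strand), had 448, 434 and 377 CPM in KO tumours, 221, 232 and 245 CPM in WT tumours, 386 and 369 CPM in KO livers and 381 and 479 CPM in WT livers. KO tumours shared the range of the livers and WT tumours lay below it (-0.89 against WT livers, SE 0.20, adjusted p = 0.0117). Cox4i1, a regulatory subunit (chromosome 8, 120668222 to 120674207), had 273, 254 and 248 CPM in KO tumours, 148, 170 and 140 CPM in WT tumours, 332 and 280 CPM in KO livers and 277 and 275 CPM in WT livers. It was again lowest in WT tumours (-0.85, SE 0.20, adjusted p = 0.0138). Cox6a1, the isoform of liver, had 325, 482 and 293 CPM in KO tumours, 252, 259 and 260 CPM in WT tumours, 407 and 496 CPM in KO livers and 467 and 479 CPM in WT livers. It fell in WT tumours (-0.88, SE 0.23, adjusted p = 0.028). Cox5a fell as well, close to the threshold (-0.76, SE 0.22, adjusted p = 0.0499). Cox8a had 296, 412 and 325 CPM in KO tumours, 207, 236 and 246 CPM in WT tumours, 464 and 484 CPM in KO livers and 348 and 388 CPM in WT livers. It was lowest in WT tumours without passing the test (-0.68, SE 0.21, adjusted p = 0.0623).

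Tissue isoforms of complex IV other than those above were low, beside a floor of detection set at 3 counts per library or 0.156 to 0.231 CPM. Cox4i2, Cox7b2 and Cox8c had no count in any library, and Cox6a2 and Cox8b were too low to be tested, with Cox6a2 reaching 1.44 CPM in KO tumour 3 and Cox8b 1.88 CPM in WT liver 1. Cox7a1 had 5.70, 7.47 and 5.33 CPM in KO tumours, 2.76, 9.24 and 2.76 CPM in WT tumours, 0 and 1.91 CPM in KO livers and 2.70 and 4.98 CPM in WT livers, and passed no test. The hypoxia-linked paralogue Ndufa4l2 stayed under 1.8 CPM in every library, with 0.924, 1.74 and 0.721 CPM in KO tumours, 0.937, 0.873 and 0.834 CPM in WT tumours, 0 and 0 CPM in KO livers and 0.754 and 0.315 CPM in WT livers. KO tumours were at least 5.89-fold higher than KO livers, taking the floor for the livers, but the test was not passed (adjusted p = 0.426).

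ATP synthase had 7 of 17 nuclear-encoded members lower in WT tumours. Of its catalytic head, Atp5a1, the alpha subunit, had 538, 704 and 629 CPM in KO tumours, 380, 383 and 410 CPM in WT tumours, 829 and 790 CPM in KO livers and 770 and 856 CPM in WT livers. KO tumours lay between WT tumours and the livers without overlap, and the fall of WT tumours against WT livers was -1.06 (SE 0.20, adjusted p = 0.0035). The beta subunit, Atp5b (chromosome 10, 128083273 to 128090391), which holds the catalytic sites, had 377, 521 and 424 CPM in KO tumours, 305, 283 and 302 CPM in WT tumours, 409 and 427 CPM in KO livers and 544 and 569 CPM in WT livers. WT tumours were the lowest and WT livers the highest (-0.91, SE 0.20, adjusted p = 0.011). Subunit e, Atp5k, which takes part in dimers of the enzyme (chromosome 5, 108433244 to 108434448, minus strand), had 169, 202 and 169 CPM in KO tumours, 86.2, 84.9 and 99.1 CPM in WT tumours, 181 and 175 CPM in KO livers and 159 and 184 CPM in WT livers. KO tumours and livers overlapped and WT tumours lay well below them (-0.93, SE 0.20, adjusted p = 0.00938). The others that fell were Atp5d, Atp5g3, Atp5f1 and Atp5j2, by 0.73 to 0.92 on the log2 scale.

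The member that rose was Atp5s, a coupling factor named for ATP synthase. It had 7.32, 1.95 and 1.87 CPM in KO tumours, 2.92, 1.16 and 4.23 CPM in WT tumours, 3.66 and 0.212 CPM in KO livers and 0 and 0 CPM in WT livers. Taking the floor for the WT livers over their mean, WT tumours were at least 14.7-fold higher (adjusted p = 0.0405), on 0 counts in the livers and 16 to 66 counts in the tumours. The call was lost without either WT liver (adjusted p = 0.149 each) and without WT tumour 1 or 3 or KO tumour 1 or 3 (adjusted p = 0.0618 to 0.0853). Atpif1, the inhibitor of ATP synthase that the symbol rule leaves out, rose in the same comparison, with 55.5, 32.2 and 43.8 CPM in KO tumours, 43.6, 69.4 and 94.1 CPM in WT tumours, 20.5 and 29.4 CPM in KO livers and 34.5 and 18.7 CPM in WT livers. All WT tumours were above both WT livers (1.38, SE 0.38, adjusted p = 0.0353). Cyc1, the cytochrome c1 of complex III that the rule also misses, fell (-0.83, SE 0.24, adjusted p = 0.046).

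**Figure D3:**
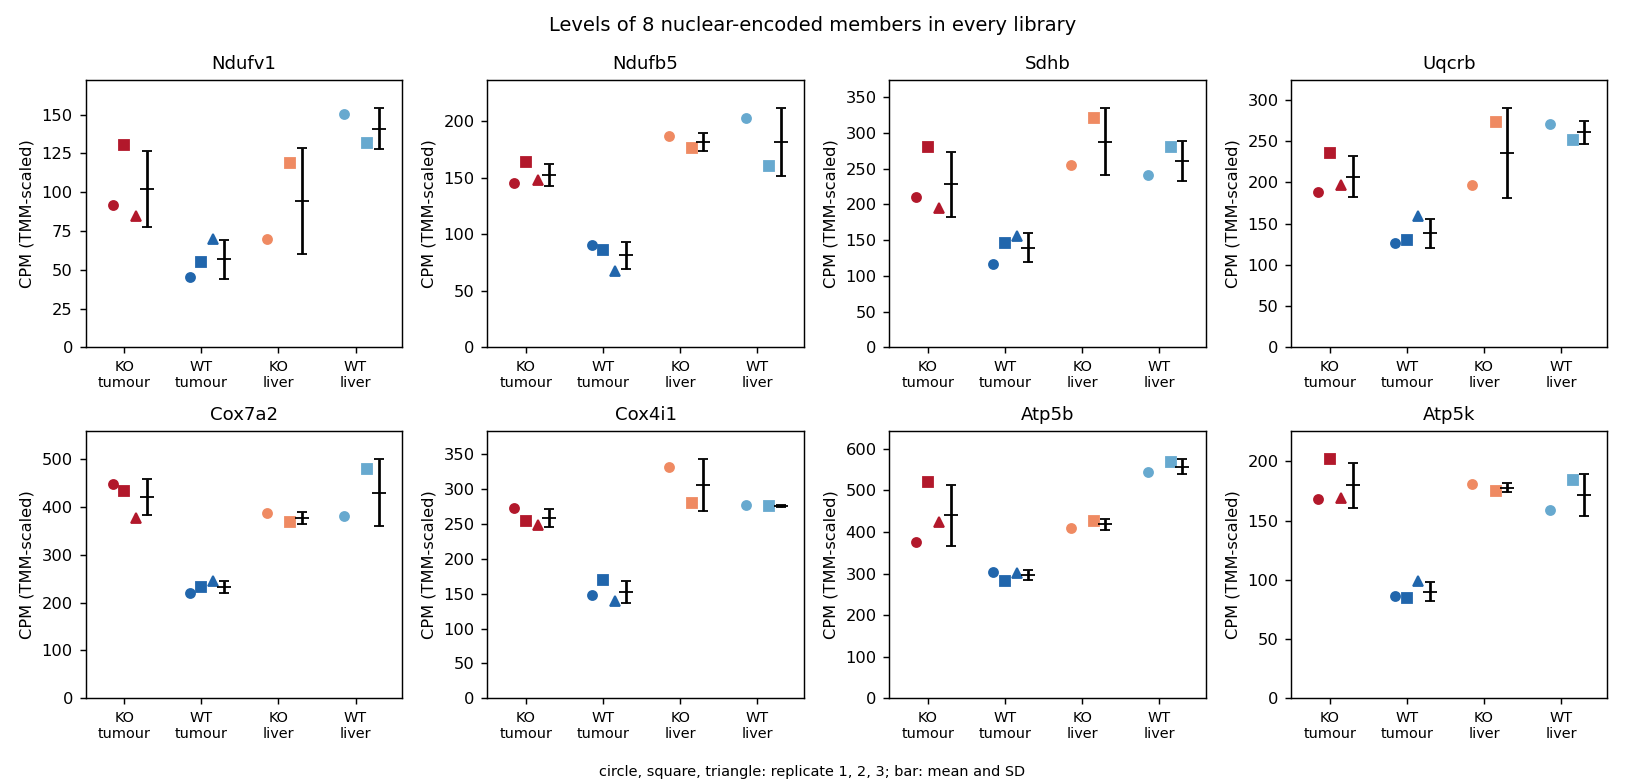
Levels (CPM, scaled by TMM factors) of 8 nuclear-encoded members of complexes I to V in every library; circles, squares and triangles are replicates 1, 2 and 3, black bars the mean and SD. In each panel the WT tumours hold the lowest values, at 45.04 to 70.1 CPM for Ndufv1 and 84.9 to 99.1 CPM for Atp5k, with WT tumour 3 level with a KO liver for Ndufv1.

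The mitochondrial genome is transcribed from both strands as long precursors that are cut at the tRNAs between most genes. Of the 13 mRNAs, 6 fell in WT tumours: mt-Nd2, mt-Cytb, mt-Atp6, mt-Co3, mt-Nd4 and mt-Co2. The first gene of complex I after the ribosomal RNAs, mt-Nd1, had 6968, 8609 and 7487 CPM in KO tumours, 5316, 4624 and 5874 CPM in WT tumours, 6248 and 7130 CPM in KO livers and 7018 and 7084 CPM in WT livers. Its WT tumours lay below both WT livers without passing the test (-0.42 in WT tumours against WT livers, SE 0.21, adjusted p = 0.266). The next one, mt-Nd2, had 6370, 8886 and 8026 CPM in KO tumours, 4702, 4573 and 5252 CPM in WT tumours, 9744 and 13680 CPM in KO livers and 12190 and 12060 CPM in WT livers. Its fall in WT tumours was the largest among the 13 (-1.32, SE 0.23, adjusted p = 0.00154), and KO tumours also lay below all 4 livers (-0.59 against KO livers, SE 0.23, adjusted p = 0.402). These neighbours lie 206 bases apart on the same strand, and the difference between their changes was not tested.

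For complex III, mt-Cytb, the cytochrome b gene, had 7157, 10380 and 7170 CPM in KO tumours, 5003, 4436 and 4431 CPM in WT tumours, 9669 and 10100 CPM in KO livers and 9505 and 10610 CPM in WT livers. WT tumours were the lowest (-1.12, SE 0.22, adjusted p = 0.00473), and KO tumours 1 and 3 lay below the livers while KO tumour 2 lay among them. For complex IV, mt-Co3 had 15740, 19060 and 15080 CPM in KO tumours, 9022, 8911 and 9688 CPM in WT tumours, 15280 and 15870 CPM in KO livers and 16110 and 18380 CPM in WT livers. KO tumours spanned the livers and WT tumours lay far below (-0.91, SE 0.21, adjusted p = 0.0116). The copper-bearing subunit mt-Co2 had 5251, 7969 and 5706 CPM in KO tumours, 3681, 3095 and 3619 CPM in WT tumours, 7103 and 7046 CPM in KO livers and 6648 and 6727 CPM in WT livers (-0.95, SE 0.22, adjusted p = 0.014). The catalytic subunit mt-Co1 had 4057, 4395 and 3952 CPM in KO tumours, 3970, 3462 and 4093 CPM in WT tumours, 3552 and 5398 CPM in KO livers and 6115 and 5623 CPM in WT livers. KO and WT tumours overlapped for mt-Co1, which passed no test (-0.61 in WT tumours against WT livers, SE 0.22, adjusted p = 0.112).

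Among the other complex I genes of mtDNA, mt-Nd4 fell in WT tumours, with 6610, 13180 and 7746 CPM in KO tumours, 5331, 4598 and 5216 CPM in WT tumours, 12240 and 13750 CPM in KO livers and 11660 and 10520 CPM in WT livers. All WT tumours lay below both WT livers (-1.14, SE 0.27, adjusted p = 0.0138). KO tumour 2 was in the range of the livers for mt-Nd4, whereas KO tumours 1 and 3 were closer to the WT tumours. The differences of mt-Nd3, mt-Nd5 and mt-Nd6 from WT livers, between -0.78 and -0.64, did not pass the test (adjusted p = 0.062 to 0.0756). For mt-Nd6, on the strand opposite to all others, WT tumours had 559, 534 and 626 CPM and WT livers 1017 and 952 CPM, and for mt-Nd3 and mt-Nd5 likewise the WT tumours lay below both WT livers.

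Reading frames overlap in 2 pairs of these genes that are carried on shared mRNAs, and in both pairs the members had different values. The sequences at the overlaps are shown because reads there can belong to either gene, with the shared bases in capitals (GRCm38, GENCODE M21, plus strand; chrM:7910-7969 for the end of mt-Atp8, chrM:7927-7986 for the start of mt-Atp6, chrM:10114-10173 for the end of mt-Nd4l and chrM:10167-10226 for the start of mt-Nd4).
mt-Atp8 end: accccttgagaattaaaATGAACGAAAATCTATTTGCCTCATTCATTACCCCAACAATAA
mt-Atp6 start: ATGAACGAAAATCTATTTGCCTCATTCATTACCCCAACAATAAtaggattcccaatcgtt
mt-Nd4l end: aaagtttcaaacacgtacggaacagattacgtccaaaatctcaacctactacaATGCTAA
mt-Nd4 start: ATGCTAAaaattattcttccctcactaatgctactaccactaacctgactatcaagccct

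The overlap of mt-Atp8 and mt-Atp6 is 43 bases long and that of mt-Nd4l and mt-Nd4 is 7. Of the other neighbours, mt-Nd5 and mt-Nd6, on opposite strands, overlap by 14 bases, and mt-Atp6 and mt-Co3 by 1. The downstream gene mt-Atp6 had 5784, 8140 and 6066 CPM in KO tumours, 4281, 3426 and 3853 CPM in WT tumours, 6739 and 7846 CPM in KO livers and 7626 and 8048 CPM in WT livers. It fell in WT tumours, at -1.02 in WT tumours against WT livers (SE 0.22, adjusted p = 0.00823). The upstream gene mt-Atp8 had 334, 171 and 266 CPM in KO tumours, 179, 256 and 258 CPM in WT tumours, 65.9 and 112 CPM in KO livers and 132 and 167 CPM in WT livers. All 6 tumours were above all 4 livers for mt-Atp8, without passing the test in either genotype (0.63 in WT, SE 0.31, adjusted p = 0.261, and 1.53 in KO, SE 0.32, adjusted p = 0.1). The upstream gene mt-Nd4l had 303, 248 and 257 CPM in KO tumours, 216, 211 and 245 CPM in WT tumours, 199 and 157 CPM in KO livers and 234 and 265 CPM in WT livers, and passed no test. Tags of mt-Atp8 and mt-Nd4l lie upstream of a partner on the same mRNA and not at its 3' end, and the part this plays in their values was not tested.

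**Figure D4:**
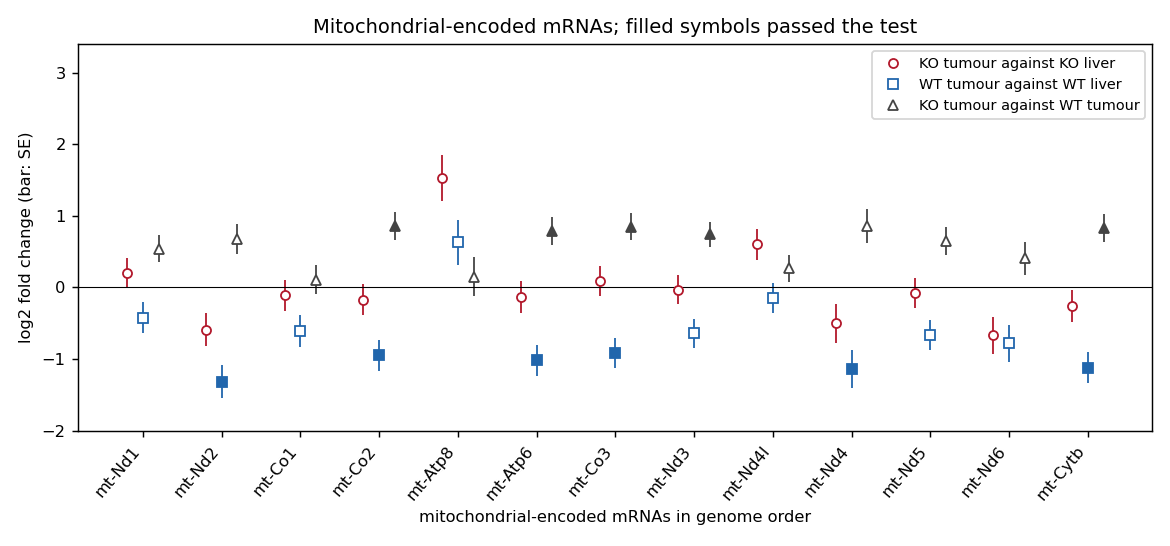
Log2 fold change (vertical axis, bars SE) of the 13 mitochondrial-encoded mRNAs in genome order (horizontal axis), for KO tumours against KO livers, WT tumours against WT livers and KO against WT tumours; filled symbols passed the test. The blue squares lie below 0 except for mt-Atp8 at 0.63, with 6 of them filled, and the grey triangles lie above 0 with 5 filled.

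KO tumours were compared with WT tumours to see whether MLK3 loss goes with another level of the chain once tumours have formed. Of the 92 members 19 rose and 0 fell, while 4.52% of all genes were called, 3.25% higher and 1.27% lower. By DESeq2 39 members rose and 0 fell, while of all 15811 genes 776 rose and 351 fell. With edgeR 58 members had an unadjusted p under 0.05, as had 14.9% of all genes. The 19 members that rose comprised 14 of 79 nuclear-encoded members, with 6 in complex I, 1 in complex II, 0 in complex III, 3 in complex IV and 4 in complex V, and 5 of 13 mitochondrial-encoded ones. The median log2 fold change was 0.57 over nuclear-encoded and 0.68 over mitochondrial-encoded members, beside -0.03 over all genes tested. KO tumours lay wholly above WT tumours for 64 members and wholly below for none of the 92, while 12.2% of all genes lay wholly above and 10.9% wholly below. Members at an unadjusted p under 0.05 were 57 without KO tumour 2. Without this library, 345 of all 15658 genes tested were called higher and 114 lower. Of the members, 9 were called higher without it, 8 of the 19 and Cox7b, and the median of all members was 0.53. Calls lost without it were Ndufa5, Ndufb3, Sdhd, Cox5a, Atp5a1, Atp5f1, Atp5j2 and 4 mitochondrial mRNAs, with log2 fold changes of 0.58 to 1.06 and adjusted p of 0.0557 for Sdhd to 0.156 for Cox5a. Those kept were mt-Co3, Ndufa12, Ndufa4, Ndufb5, Ndufb8, Cox4i1, Cox7a2 and Atp5k, at 0.74 to 1.06. WT tumours are common to this comparison and the one before, so that the tests do not stand apart from each other.

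In complex I, Ndufa12, a peripheral-arm subunit (chromosome 10, 94198720 to 94221443), had 63.9, 65.4 and 75.8 CPM in KO tumours, 35.9, 36.8 and 27.6 CPM in WT tumours, 65.8 and 93.1 CPM in KO livers and 69.3 and 68.2 CPM in WT livers. KO tumours were above all WT tumours and overlapped the livers, with KO tumours 1 and 2 just below the lowest liver (1.03 against WT tumours, SE 0.22, adjusted p = 0.0122). Ndufb5, whose levels are given above, was 0.90 higher (SE 0.20, adjusted p = 0.0129). Ndufa4 had 163, 164 and 178 CPM in KO tumours, 93.0, 105 and 71.4 CPM in WT tumours, 111 and 136 CPM in KO livers and 100 and 109 CPM in WT livers. KO tumours were above all other libraries for Ndufa4 (0.91 against WT tumours, SE 0.20, adjusted p = 0.0154, and 0.44 against KO livers, SE 0.23, adjusted p = 0.552). Ndufa5, Ndufb8 and Ndufb3 rose by 0.76 to 0.90, and the differences of Ndufb7 (0.70, adjusted p = 0.0505), Ndufs8 (0.87, adjusted p = 0.052) and Ndufv1 (0.85, adjusted p = 0.0788) did not pass.

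Sdhd, a membrane anchor of complex II (chromosome 9, 50596357 to 50603812, minus strand), had 74.4, 73.2 and 79.9 CPM in KO tumours, 46.3, 33.8 and 31.0 CPM in WT tumours, 59.8 and 37.0 CPM in KO livers and 37.0 and 35.4 CPM in WT livers. KO tumours were above all other libraries, while WT tumours overlapped the livers (1.03 against WT tumours, SE 0.24, adjusted p = 0.0225). The difference of Sdhb (0.71, SE 0.21, adjusted p = 0.0758) did not pass the test. In complex III the smallest adjusted p among nuclear-encoded members was that of Uqcr11, a small subunit (0.65, SE 0.18, adjusted p = 0.0549), and 4 of the 8 members had an unadjusted p under 0.05.

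In complex IV, Cox7a2 was 0.85 higher (SE 0.18, adjusted p = 0.0128) and Cox4i1 0.76 higher (SE 0.18, adjusted p = 0.0251). Cox5a, which had 301, 389 and 257 CPM in KO tumours, 186, 176 and 188 CPM in WT tumours, 244 and 322 CPM in KO livers and 301 and 322 CPM in WT livers, was 0.78 higher (SE 0.20, adjusted p = 0.0412). Cox7a2l, related to Cox7a2 and known for joining complexes III and IV into supercomplexes, had 175, 165 and 170 CPM in KO tumours, 170, 231 and 176 CPM in WT tumours, 175 and 171 CPM in KO livers and 159 and 145 CPM in WT livers. The tumour groups overlapped for it (-0.18, SE 0.19, adjusted p = 0.793), and WT tumours were not below KO tumours.

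In complex V, Atp5k had the smallest adjusted p of all members in this comparison (1.00, SE 0.19, adjusted p = 0.00482). Atp5f1, subunit b of the stator, had 181, 215 and 196 CPM in KO tumours, 127, 117 and 113 CPM in WT tumours, 218 and 218 CPM in KO livers and 203 and 197 CPM in WT livers. It was 0.73 higher in KO than in WT tumours (SE 0.18, adjusted p = 0.0273). Atp5j2, subunit f of the membrane part, had 247, 247 and 261 CPM in KO tumours, 139, 152 and 170 CPM in WT tumours, 325 and 278 CPM in KO livers and 232 and 276 CPM in WT livers. It was 0.71 higher in KO than in WT tumours (SE 0.18, adjusted p = 0.0395). For both, WT tumours were the lowest of the 10 libraries. Atp5a1 rose near the threshold (0.67, SE 0.18, adjusted p = 0.0494), and Atp5b did not pass it (0.57, SE 0.19, adjusted p = 0.114).

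Among the mRNAs of mtDNA, mt-Co3 (0.85, SE 0.19, adjusted p = 0.0145), mt-Co2 (0.86, SE 0.20, adjusted p = 0.0225), mt-Cytb (0.83, SE 0.20, adjusted p = 0.027), mt-Nd3 (0.74, SE 0.18, adjusted p = 0.0284) and mt-Atp6 (0.79, SE 0.20, adjusted p = 0.0346) rose in KO tumours. KO tumours lay above WT tumours for 10 of the 13. KO tumour 2 held the highest value among the tumours for each of these 5, for example 7969 CPM of mt-Co2 against 5251 and 5706 CPM in KO tumours 1 and 3. Without it, mt-Co3 still passed, while mt-Nd3, mt-Cytb, mt-Co2 and mt-Atp6, at 0.62 to 0.66, had adjusted p of 0.0694 to 0.112.

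The count of 19 also leans on other single libraries, being 6 without WT tumour 3, 7 without KO tumour 3, 11 without WT tumour 2 and 12 without WT tumour 1. The sum of 5 neutrophil markers ran from 17.8 to 194 CPM in KO tumours and from 53.4 to 213 CPM in WT tumours. That of 6 bile duct markers ran from 51.7 to 201 CPM in KO tumours and from 164 to 349 CPM in WT tumours, and is carried by Sox9 and Spp1. In KO against WT tumours 1 of these 6 was called lower and 0 higher. Of 8 stellate cell and fibroblast markers, 2 were called lower and 0 higher, and 6 had an unadjusted p under 0.05. Of 8 Kupffer cell and macrophage markers, 1 was called higher and 0 lower. Of the 7 hepatocyte markers, 3 were called lower and 0 higher, with a median log2 fold change of -0.67. Over all genes 1.27% were called lower and 3.25% higher. Mup and hepatocyte values are given above, and the part of all these in the difference was not tested.

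**Figure D5:**
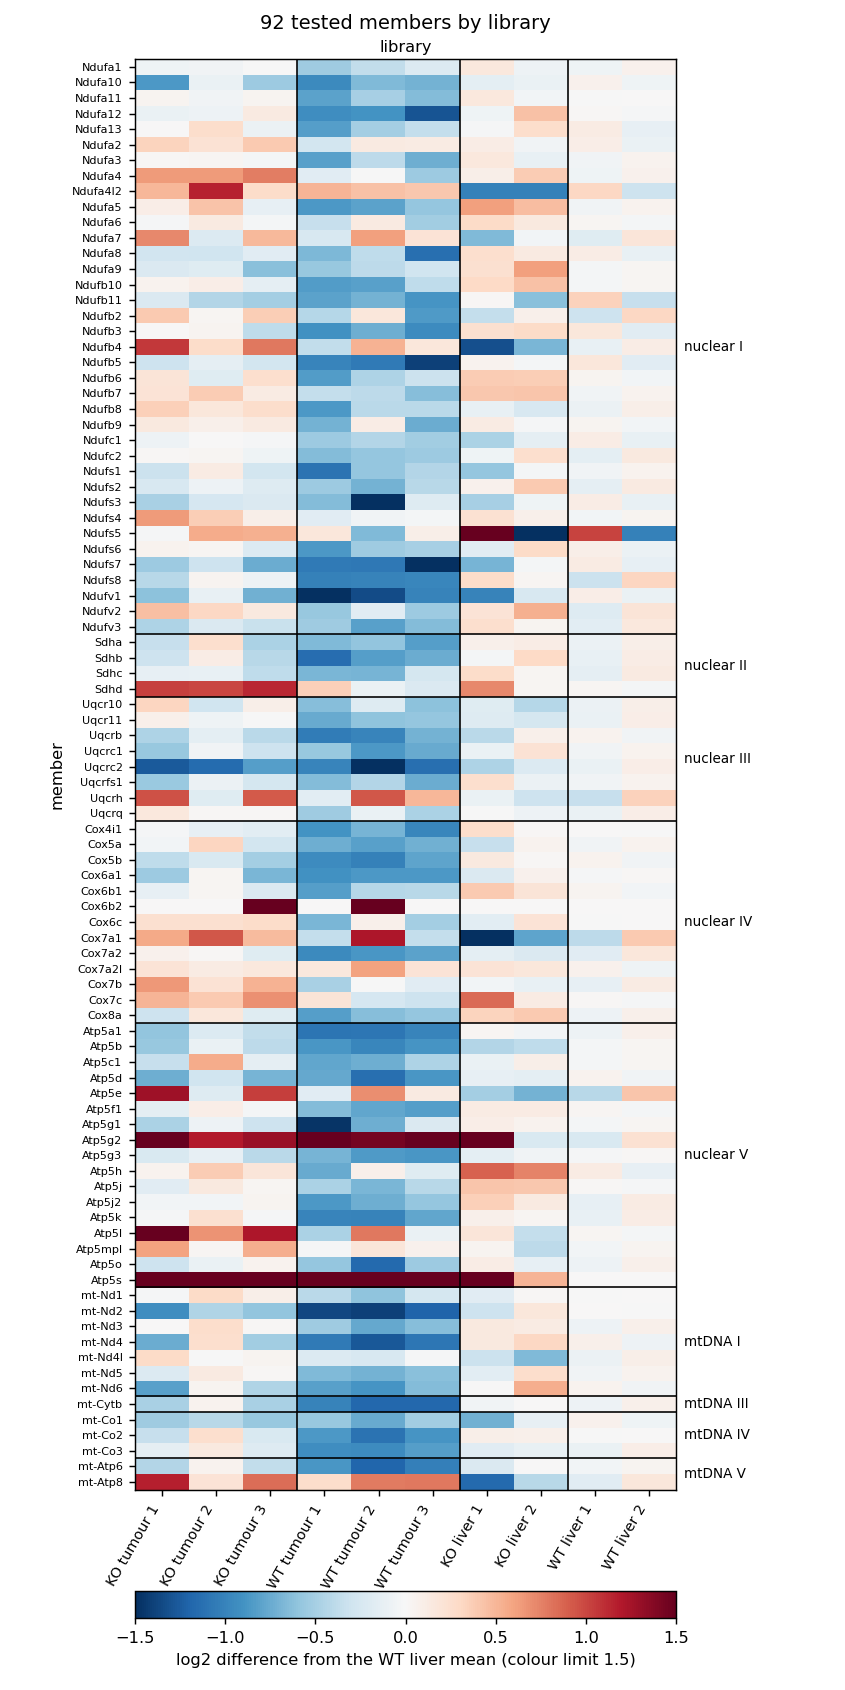
Log2 difference of each of the 92 tested members (rows, by genome and complex) from the mean of the WT livers, in each library (columns, KO tumours first), with colours limited at 1.5. The 3 WT tumour columns are mostly blue in every complex, and Uqcrh, Atp5e, Atp5l and Ndufb4 are red in KO tumours 1 and 3, while KO tumour 2 is pale red for Atp5l and Ndufb4 and pale blue for Uqcrh (-0.18) and Atp5e (-0.20).

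KO tumours against KO livers gave no called member with edgeR, of 92 tested, while 0.0759% of all genes were called. An unadjusted p under 0.05 was reached by 18 members, while 9.61% of all genes reached it. DESeq2 called 3 higher (mt-Atp8, Ndufb4 and Atp5e), while of all 15811 genes it called 348 higher and 35 lower. The median log2 fold change was -0.11 over nuclear-encoded and -0.11 over mitochondrial-encoded members, beside 0.06 over all genes. KO tumours lay wholly below KO livers for 26 members and wholly above for 16, while 12.4% of all genes lay wholly below and 14.3% wholly above. Without KO tumour 2, edgeR called 3 members higher, mt-Atp8 (1.76, adjusted p = 0.00797), Ndufb4 (1.92, adjusted p = 0.0097) and Atp5e (1.76, adjusted p = 0.012), and 0 lower. Of all 15658 genes tested in that fit, 189 were called higher and 13 lower. There, 31 members had an unadjusted p under 0.05, with 28 members above 0, 64 below and a median of -0.15 over all members. With KO tumour 2, 34 were above 0 and 58 below, with a median of -0.11.

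KO livers were compared with WT livers to see the levels without carcinogen. No member was called by edgeR, while 0.00632% of all genes were. An unadjusted p under 0.05 was reached by 6 members and by 7.28% of all genes. DESeq2 called 1 member, Atp5s, higher, while of all 15811 genes it called 64 higher and 87 lower. The median log2 fold change was 0.05 over all members, with 51 above 0 and 40 below. The difference between genotypes in the tumour-to-liver change, tested as an interaction, was not called by edgeR for any member either, while 1.59% of all genes were called, 1.22% higher and 0.367% lower. It was above 0 for 86 of the 92 members, with a median of 0.57 beside 0.03 over all genes. An unadjusted p under 0.05 was reached by 30 members and by 12.7% of all genes. DESeq2 called 10 members higher (mt-Cytb, mt-Co3, mt-Atp6, Ndufb4, Ndufb8, Ndufv1, Uqcr11, Cox7a2, Atp5b and Atp5k). Of all 15811 genes, it called 432 higher and 222 lower for the interaction. The smallest adjusted p by edgeR were 0.103 for Cox7a2 (1.04, SE 0.29), 0.106 for Ndufv1 (1.43, SE 0.40) and 0.11 for Ndufb4 (1.58, SE 0.45). Without KO tumour 2 the interaction was called for 0 members, with 84 of 92 above 0, a median of 0.54 and 27 members at an unadjusted p under 0.05. Of all 15658 genes tested in that fit, it was called higher for 170 and lower for 49. By edgeR, a change in WT tumours without one in KO tumours is therefore not shown to differ between the genotypes for any single member.

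In WT tumours against WT livers 15 of the 92 members had a log2 fold change above 0. Those described here were picked after their values were seen. Atp5e, the epsilon subunit of ATP synthase, had 1167, 421 and 990 CPM in KO tumours, 429, 786 and 533 CPM in WT tumours, 340 and 296 CPM in KO livers and 363 and 645 CPM in WT livers. Uqcrh, given above for tumours, had 821 and 711 CPM in KO livers and 693 and 1122 CPM in WT livers. Both were high in KO tumours 1 and 3 and WT tumour 2, and in WT liver 2 over WT liver 1, and edgeR over all 10 libraries called neither in KO tumours against KO livers (adjusted p = 0.197 for Atp5e and 0.462 for Uqcrh), while Atp5e was called by DESeq2 and without KO tumour 2, as given above. Ndufb4, an accessory subunit of complex I, had 104, 59.7 and 86.1 CPM in KO tumours, 38.3, 71.3 and 55.9 CPM in WT tumours, 19.6 and 30.4 CPM in KO livers and 45.6 and 53.5 CPM in WT livers. KO tumours were above KO livers (1.73, SE 0.34, adjusted p = 0.0788), the smallest adjusted p of a member in that comparison. Atp5l, subunit g, had 129, 71.5 and 104 CPM in KO tumours, 32.2, 77.9 and 41.7 CPM in WT tumours, 50.9 and 34.9 CPM in KO livers and 45.9 and 43.7 CPM in WT livers. It was again highest in KO tumours 1 and 3 with WT tumour 2 above the other WT tumours. Ndufs5 was not one of the 15, with a mean of 1.87 CPM in WT tumours and 2.67 CPM in WT livers. Ndufs5 and Atp5g2 were tested on few counts, with no value above 7.66 CPM for Ndufs5 or 3.72 CPM for Atp5g2, both in KO liver 1. Cox6b2 had counts in KO tumour 3 (1.73 CPM) and WT tumour 2 (1.75 CPM) alone. None of these 3 passed a test. A processed pseudogene of Atp5l, Atp5l-ps2, held 893 to 6553 counts per library, and the labels do not say how reads that match both were assigned. With the reads of the 10 pseudogenes added to their parent genes, a choice made after seeing the data, Atp5l was at 0.94 in KO against WT tumours (adjusted p = 0.234) and Ndufb4 at 1.81 in KO tumours against KO livers (adjusted p = 0.0683).

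Promoters were looked up because so many members moved together, with windows running from 250 bases before to 50 after the start of the gene (RefSeq, GRCm38.p6). Windows were matched to 68 of the 84 nuclear-encoded members. Short cores of 4 factor families known to act on respiratory genes were searched on both strands. The core of NRF1, GCGCATGCG, was in 8 of 68 windows (11.8%) and in 1.95% of the windows of 27025 genes. The ETS core CCGGAAG, which GABP binds, was in 16 (23.5%) against 9.93% of all, the YY1 core AAGATGGCG in 7 (10.3%) against 1.64%, and the oestrogen-related receptor core TCAAGGTCA in 2 (2.94%) against 0.466%. In all, 27 of the 68 matched members held at least 1 of the 4. Most of all matched members thus held none, and so did most of those called in the tumour comparisons. The windows of Atp5k, Atp5j2 and Cox7a2 are shown as 3 members called in both tumour comparisons, 2 with a match and 1 without. This choice is not in proportion, as Ndufa12, Ndufb3, Ndufb5, Cox5a and Atp5f1, also called in both, had windows without a match. Capitals mark the matches: in Atp5k the NRF1 core on both strands, where it overlaps itself, 50 bases before the start, and the ETS core on the opposite strand, and in Atp5j2 the YY1 core, 23 bases after the start. All lie on the minus strand, Atp5k at chr5:108434350-108434649, Atp5j2 at chr5:145191492-145191791 and Cox7a2 at chr9:79759804-79760103.
Atp5k: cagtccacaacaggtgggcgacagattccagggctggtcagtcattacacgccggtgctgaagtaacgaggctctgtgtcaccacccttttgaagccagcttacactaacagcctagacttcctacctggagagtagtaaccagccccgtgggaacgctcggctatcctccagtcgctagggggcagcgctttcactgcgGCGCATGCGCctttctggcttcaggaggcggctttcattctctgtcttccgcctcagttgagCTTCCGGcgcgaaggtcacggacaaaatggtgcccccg
Atp5j2: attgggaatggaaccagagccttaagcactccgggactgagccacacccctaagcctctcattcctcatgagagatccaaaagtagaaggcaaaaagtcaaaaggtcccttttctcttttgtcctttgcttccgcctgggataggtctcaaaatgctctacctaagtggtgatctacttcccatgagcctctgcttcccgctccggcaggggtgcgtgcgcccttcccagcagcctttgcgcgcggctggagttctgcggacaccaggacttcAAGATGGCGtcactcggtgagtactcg
Cox7a2: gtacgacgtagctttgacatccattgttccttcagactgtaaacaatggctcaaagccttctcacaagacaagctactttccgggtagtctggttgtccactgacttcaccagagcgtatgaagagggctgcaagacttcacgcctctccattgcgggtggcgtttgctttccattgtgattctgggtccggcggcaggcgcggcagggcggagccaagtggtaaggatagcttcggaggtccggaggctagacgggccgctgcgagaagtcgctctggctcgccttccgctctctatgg

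Neighbouring pathways were read from lists of genes that are no members, beside the 8.34% of all genes called in WT tumours against WT livers and the 4.52% called in KO against WT tumours. Of 22 electron carriers and coenzyme Q genes, 2 rose and 5 fell in WT tumours against WT livers (31.8% called, median -0.49), and 3 rose and 1 fell in KO against WT tumours (18.2% called, median 0.55). Without KO tumour 2, Prodh and Coq8a rose and Coq8b fell in KO against WT tumours, and Etfdh did not pass (0.97, adjusted p = 0.124). Prodh, proline dehydrogenase, which feeds electrons of proline into the chain, had 42.8, 60.7 and 50.0 CPM in KO tumours, 3.59, 2.40 and 7.95 CPM in WT tumours, 38.4 and 54.7 CPM in KO livers and 40.1 and 70.2 CPM in WT livers. KO tumours shared the range of the livers and WT tumours lay far below, at -3.56 against WT livers (SE 0.43, adjusted p = 8.85e-05) and 3.46 for KO against WT tumours (SE 0.41, adjusted p = 9.12e-05). The interaction passed for Prodh (3.70, SE 0.60, adjusted p = 0.00419) and for Coq8a, a kinase-like protein of coenzyme Q synthesis (1.97, SE 0.43, adjusted p = 0.031). The interaction without KO tumour 2 was 3.56 for Prodh (adjusted p = 0.0116) and 1.57 for Coq8a (adjusted p = 0.0376). Coq8a had 72.0, 154 and 86.3 CPM in KO tumours, 38.5, 33.3 and 28.3 CPM in WT tumours, 143 and 129 CPM in KO livers and 138 and 203 CPM in WT livers. Its paralogue Coq8b went the other way, with 34.4, 8.44 and 33.0 CPM in KO tumours, 69.4, 71.6 and 89.4 CPM in WT tumours, 15.4 and 13.45 CPM in KO livers and 14.4 and 17.4 CPM in WT livers. WT tumours were above all other libraries (2.27 in WT tumours against WT livers, SE 0.47, adjusted p = 0.00636, and -1.60 for KO against WT tumours, SE 0.39, adjusted p = 0.0283). Etfdh, which passes electrons of fatty acid oxidation to ubiquinone, was -1.33 in WT tumours against WT livers (SE 0.31, adjusted p = 0.0131) and 1.21 for KO against WT tumours (SE 0.28, adjusted p = 0.0214).

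Of 47 tested assembly factors, 5 fell and 0 rose in WT tumours against WT livers (10.6% called, median -0.47), and 2 rose and 0 fell in KO against WT tumours (4.26% called, median 0.34). Of all genes, 4.7% fell in WT tumours against WT livers, and 3.25% rose in KO against WT tumours, a share close to that of the assembly factors there. Without KO tumour 2 neither of the 2 that rose passed, Higd2a at 0.71 (adjusted p = 0.0791) and Higd1a at 1.71 (adjusted p = 0.0628). Higd2a, which helps to join complexes into supercomplexes, fell by 0.87 in WT tumours against WT livers (adjusted p = 0.016) and was 0.79 higher in KO than in WT tumours (adjusted p = 0.0243). Ndufaf7, a methyltransferase needed for complex I, fell by 1.5 in WT tumours (adjusted p = 0.0314), and Ecsit, another complex I factor, by 1.32 (adjusted p = 0.0392). Of 22 genes of pyruvate dehydrogenase and the citric acid cycle, 6 fell and 0 rose in WT tumours (27.3% called, median -0.72). Among them were Dlst, a subunit of the oxoglutarate dehydrogenase complex (-1.01, SE 0.22, adjusted p = 0.00934), Idh3a of NAD-linked isocitrate dehydrogenase (-1.92, SE 0.43, adjusted p = 0.0111) and the kinase Pdk2 (-1.38, SE 0.34, adjusted p = 0.0187). In KO against WT tumours 1 of the 22 rose, citrate synthase, Cs (0.79, SE 0.21, adjusted p = 0.0388), a share of 4.55% that is close to that over all genes. Cs did not pass without KO tumour 2 (0.80, adjusted p = 0.0894). Of 24 tested membrane carriers and channels, a list that also holds fusion proteins, 5 fell and 0 rose in WT tumours (20.8% called, median -0.50), and 4 rose and 0 fell in KO against WT tumours (16.7% called, median 0.20). They were the aspartate-glutamate carrier Slc25a13 (1.16), the fusion proteins Mfn2 (1.19) and Opa1 (0.91) and the dicarboxylate carrier Slc25a10 (0.98). Slc25a13 passed without KO tumour 2 as well (1.01, adjusted p = 0.0285), and the other 3 did not (0.64 to 0.86, adjusted p = 0.0611 to 0.213).

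Of 35 tested genes that maintain or transcribe mtDNA, 2 fell and 0 rose in WT tumours against WT livers (5.71% called, median -0.14). By edgeR 0 were called in KO against WT tumours (median 0.20), with 2 at an unadjusted p under 0.05. Mgme1, an exonuclease of mtDNA replication, fell in WT tumours, with 5.16, 13.1 and 14.0 CPM in KO tumours, 4.84, 4.15 and 2.89 CPM in WT tumours, 7.26 and 11.4 CPM in KO livers and 25.9 and 28.8 CPM in WT livers. WT tumours lay below both WT livers (-2.78, SE 0.52, adjusted p = 0.00297). Hsd17b10, a subunit of mitochondrial RNase P, which cuts the tRNAs out of the precursors, fell too (-0.98, SE 0.28, adjusted p = 0.0394). Tfam, which packages mtDNA and starts its transcription, had 33.6, 44.0 and 28.3 CPM in KO tumours, 20.5, 40.2 and 33.4 CPM in WT tumours, 20.7 and 51.1 CPM in KO livers and 38.9 and 44.3 CPM in WT livers. Its groups overlapped in all 4 comparisons of groups. Of 18 tested regulators of respiratory genes, 1 rose and 1 fell in WT tumours against WT livers (11.1% called, median 0.09): Epas1, a hypoxia-inducible factor, at 0.81 (SE 0.23, adjusted p = 0.0431), and the mitochondrial deacetylase Sirt3 at -1.87 (SE 0.47, adjusted p = 0.0207). The coactivator Ppargc1a, with 11.8, 8.16 and 11.4 CPM in KO tumours, 7.45, 10.6 and 4.87 CPM in WT tumours, 7.66 and 9.20 CPM in KO livers and 6.91 and 5.42 CPM in WT livers, passed no test. No gene of these 6 lists was called by edgeR in KO tumours against KO livers or in KO against WT livers.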

How the data were processed

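RNA was extracted from liver or liver tumour tissue, and libraries were made with a strand-specific QuantSeq 3' mRNA kit (FWD), per the labels' protocols. The submitters' processing notes name BWA as aligner, featureCounts as counter and mm10 as build. Tool versions, the strand option of the counting, the gene models behind it and the handling of multi-mapped reads stand neither in the labels nor in those notes. The values are raw counts per gene, as the authors deposited them, for 10 libraries with 12408749 to 18081487 counts each.

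Symbols were matched to 38872 of 39056 gene IDs (184 had none), and coordinates come from GENCODE vM21 (GRCm38). The members and lists were chosen with earlier results of these data known. Genes that passed edgeR's filterByExpr (15811) were scaled by TMM and fitted with edgeR 4.0.16 (R 4.3.3, limma 3.58.1) by the quasi-likelihood test, with 1 term per group over all 10 libraries; p-values were adjusted by Benjamini-Hochberg over all genes tested, at a threshold of 0.05. The spread estimate rested on 6 residual degrees of freedom, a prior of 8.78, and a biological coefficient of variation of 71.8%. A fold against a group at 0 used a floor of 3 counts. DESeq2 1.42.0 was an alternative, with other scalings, filters, sample sets and left-out libraries. Figures used matplotlib 3.10.9 under Python 3.11.15.

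Named in full were the mitochondrial mRNAs, the 3 called members of smallest p per comparison, nuclear complex and direction, and a list of core subunits and tissue isoforms; of each pathway list up to 3 called genes of smallest p, and otherwise the one of smallest p. Tfam, Ppargc1a, Coq8b, Slc25a10, Ndufs5, Atp5g2 and Cox6b2 and the members that did not move with the rest were singled out after their values were seen. Replicates of a group differed by far more than sampling noise (chi-square per degree of freedom 39.8 to 94.9), so that none was taken as deposited in duplicate. Prorp, listed among mtDNA genes, and the hepatocyte marker Tf were not matched.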

Additional observations from a re-analysis of the deposited data

How the results depend on the processing

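No called result changed sign under the alternatives tried. Calls kept under all 19 alternatives were mt-Nd2, mt-Cytb, Ndufb5, Ndufv1 and Atp5a1 in WT tumours against WT livers, and mt-Co3, Cox7a2 and Atp5k in KO against WT tumours. The 26 members lower in WT tumours were 8 with library totals alone, 48 with DESeq2 and 10 to 35 with 1 library left out; the 1 higher was 0 with a filter at 10 CPM, with only the groups compared and with the replicate block, and 0 to 1 with 1 library left out. The 19 members higher in KO than in WT tumours were 11 with library totals alone, 32 with the 10 CPM filter, 39 with DESeq2, 11 with only the groups compared and 6 to 19 with 1 library left out. Members higher in KO tumours than in KO livers were 1 with library totals alone, 4 without a filter, 3 with DESeq2 and 0 to 3 with 1 library left out. In KO against WT livers DESeq2 called 1 higher, and for the interaction 3 were called without a filter and 10 with DESeq2. Of all genes, DESeq2 called 1199 higher and 1052 lower in WT tumours against WT livers. Without a filter, 342 of 21045 genes were higher and 44 lower in KO tumours against KO livers, and 432 and 203 for the interaction. With the 10 CPM filter, 609 of 7656 genes were higher in KO than in WT tumours and 253 lower.

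With library totals alone the median of all genes in WT tumours against WT livers was 0.36 in place of 0.09; the nuclear-encoded median was -0.35 and the mitochondrial-encoded -0.51 there, and the nuclear-encoded median was 0.03 in KO tumours against KO livers, 0.48 in KO against WT tumours and 0.38 for the interaction, where it was 0.47 to 0.60 with 1 library left out. Without Mup counts the mitochondrial share was 8.27% in KO livers and 8.44% in WT livers, and the nuclear share 2.06% in KO tumours, 1.89% in KO livers and 1.90% in WT livers. The causes were not tested. Adding pseudogene reads to the parent genes, chosen after seeing the data, gave 26 lower in WT tumours and 20 higher in KO tumours.

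Replicate numbers were read as names alone. After removal of group means, same-numbered libraries correlated at -0.01 to 0.03 and differently numbered ones at -0.03 to 0.02. With 2 livers per group the deviations of the livers mirror each other, so that these values do not decide whether samples were paired. With the replicate block, 19 members were lower in WT tumours against WT livers and 12 higher in KO against WT tumours. With 2 livers per genotype, differences involving livers rest on few samples.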
